A study of Homo sapiens with 6 samples.

Results

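The ADAM sheddases are membrane-anchored metalloproteinases that cut other membrane proteins close to the cell surface and release their outer domains. The 7 genes described are ADAM8, ADAM9, ADAM10, ADAM12, ADAM15, ADAM17 and ADAM19, of 50867 genes with usable values, and 6 of the 7 were kept at a mean of at least 1 FPKM over the 6 libraries, as were 12716 genes in all. ADAM15 was chosen from its measured rise in the LNMAT1 knockdown libraries, against UM-UC-3 sh-NC and against the library labelled 5637 sh-NC, and the other 6 were added by name as its relatives. The changes of ADAM15 are therefore a description and support nothing further.

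The RNA came from 5637 and UM-UC-3, which are established lines of human bladder cancer cells. Each carried a lentiviral hairpin under puromycin selection, either a control hairpin (sh-NC) or 1 of 2 hairpins, numbered #1 and #2, against the long non-coding RNA LNMAT1. The 6 libraries hold a single library per construct and line, so a change against sh-NC has no replicate check. UM-UC-3 was grown in DMEM and 5637 in RPMI medium, so the line and its medium cannot be told apart. The deposited values are FPKM, fragments scaled to gene length and library depth, and single-exon genes gave depths from 19375000 fragments in 5637 sh-LNMAT1#2 to 24707000 in UM-UC-3 sh-NC.

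ADAM proteins are made as inactive precursors. Proprotein convertases such as furin remove the prodomain of many of them on the way to the cell surface. Tissue inhibitors of metalloproteinases (TIMPs) block some of the mature enzymes. ADAM17 travels with the iRhom proteins and ADAM10 with a family of tetraspanins, the TspanC8 group. Their substrates include ligands of the EGF receptor, cadherins, Notch receptors and cytokine receptors, and the disintegrin domain can bind integrins.

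LNMAT1 is listed as LINC01296 and was read first as a check of the labels. LINC01296 was at 43.8% and 47.4% of its control in UM-UC-3 (#1 and #2, the order used below). Against the library labelled 5637 sh-NC it was at 40.1% and 18.3%. That library had 11.7 FPKM, UM-UC-3 sh-NC 14.2 FPKM and the UM-UC-3 knockdown libraries 6.20 and 6.70 FPKM. DUXAP9, a related transcript, stood at 47.5% and 50.4% in UM-UC-3 and at 70.5% and 29.7% of the library labelled 5637 sh-NC. The related DUXAP8 has 2 rows. For the row ENSG00000271672, UM-UC-3 had 0.260 FPKM under the control hairpin and 3.32 and 1.26 FPKM under the others, the library labelled 5637 sh-NC had 6.38 FPKM, and the 5637 knockdown libraries 0.155 and 0.166 FPKM. The row ENSG00000206195 was at 1.34, 1.70, 0.698, 2.48, 0.184 and 0.0800 FPKM in the same order. How fragments shared by these copies were counted is not given in the sources used here.

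The library labelled 5637 sh-NC went against its label, and every comparison with it is given in those words. It held at least 1 FPKM of 1 among 185 genes that both 5637 knockdown libraries had at 5 FPKM or more and no UM-UC-3 library had at 0.1 FPKM. For the reverse pattern, it did so for 30 of 30 genes. The root mean square log2 difference over the kept genes from it was 0.30 for UM-UC-3 sh-LNMAT1#1, the smallest of all pairs, and 1.48 for each 5637 knockdown library. LINC01296 went the other way, since its level in the library labelled 5637 sh-NC was nearer to UM-UC-3 sh-NC. The 9 epithelial or urothelial markers summed to 27.3 FPKM there, beside 22.0 to 31.4 FPKM in UM-UC-3 and 718 and 964 FPKM in the 5637 knockdown libraries. KRT19 led this list at 299.6 and 409 FPKM in the 5637 knockdown libraries and was at 0.0729 FPKM in the library labelled 5637 sh-NC, where EPCAM and CDH1 were at 0.0104 and 0.00924 FPKM. KRT18 led it in that library and in UM-UC-3, at 15.9 to 25.2 FPKM.

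The 4 mesenchymal markers summed to 363, 156 and 185 FPKM in UM-UC-3 and to 122 and 118 FPKM in the 5637 knockdown libraries. In the library labelled 5637 sh-NC their sum was 138 FPKM. VIM made up most of that sum in the UM-UC-3 libraries and FN1 most of it in the 5637 knockdown libraries. Of the 4 leukocyte markers, CD68 was highest for the library labelled 5637 sh-NC, at 31.0 FPKM, beside 29.2 FPKM in UM-UC-3 #1 and 0.749 and 0.826 FPKM in the 5637 knockdown libraries. CD14, at 0.661 and 0.388 FPKM, and CSF1R, at 0.260 and 0.209 FPKM, were instead highest in the 5637 knockdown libraries, and PTPRC was at 0 in 5 libraries and at 0.0108 FPKM in 5637 sh-LNMAT1#2. The 3 endothelial markers summed to at most 0.284 FPKM and the 2 markers of packaging cells to at most 0.255 FPKM in any library. The 4 fibroblast markers summed to at most 0.771 FPKM outside the 5637 knockdown libraries, where COL1A1 alone was at 7.92 and 6.37 FPKM. PDGFRA went the other way, at 0.0205 and 0.0441 FPKM in the 5637 knockdown libraries and 0.316 to 0.637 FPKM elsewhere. DCN and LUM were at most 0.0969 FPKM in any library. The part of this label problem in the changes below was not tested.

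Among the sheddases, the library labelled 5637 sh-NC was nearest on the log2 scale to UM-UC-3 sh-LNMAT1#1 for 6 of the 7 genes and to UM-UC-3 sh-LNMAT1#2 for ADAM10. For 4 of the 7 it lay inside the range of the 3 UM-UC-3 libraries. These counts were not made over all kept genes, so nothing particular to the sheddases is read from them.

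**Figure D1:**
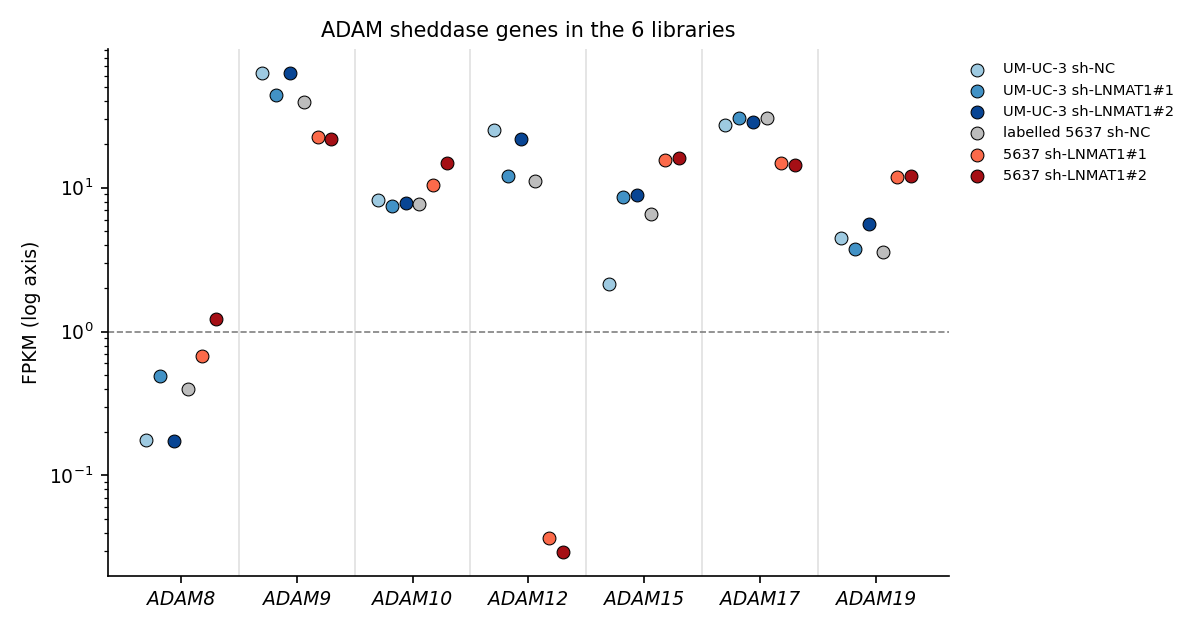
FPKM of the 7 sheddase genes on a log axis, 1 point for each library; the dashed line marks 1 FPKM. The 2 red points of ADAM12, at 0.0366 and 0.0295 FPKM, lie far below the other 4, and the pale blue point of ADAM15, UM-UC-3 sh-NC at 2.13 FPKM, is the lowest of its 6.

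ADAM15 (ENSG00000143537), on chromosome 1 of GRCh38 from 155050566 to 155062775, encodes a sheddase with a disintegrin domain that binds integrins and a cytoplasmic tail that binds SRC family kinases. UM-UC-3 had 2.13 FPKM under the control hairpin and 8.67 and 8.83 FPKM under the LNMAT1 hairpins. The library labelled 5637 sh-NC had 6.55 FPKM, and the 5637 knockdown libraries had 15.7 and 16.0 FPKM. UM-UC-3 sh-NC was thus the lowest library and the 5637 knockdown libraries were the highest. The log2 changes of log2(FPKM + 0.5), which understate the change of low genes, were 1.80 and 1.83 in UM-UC-3. Against the library labelled 5637 sh-NC they were 1.20 and 1.23, changes that rest wholly on that library. The hairpins differed by 0.02 in UM-UC-3 and 0.03 in 5637 on the same scale. The value in UM-UC-3 sh-NC rests on 18.3 to 346 fragments, counted over the shortest annotated transcript and over all exons, and the other 5 values on more. ADAM15 was 1 of 8 genes, or 0.0629% of the kept genes, at least 2-fold higher in all 4 comparisons, 2 of which rest on the library labelled 5637 sh-NC. It was chosen on these comparisons, so nothing is read from that count.

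The sequence before the RefSeq start of ADAM15 is shown beside those of ADAM12 and ADAM19, since these are the members that differed most between libraries. Promoter sequence was found for 6 of the 7 genes, all but ADAM9, in the RefSeq table on GRCh38.p14. Each line gives the 200 bases from 250 to 51 bases before the RefSeq start on the gene's own strand, with GC boxes, GGGCGG on either strand (CCGCCC when on the other), in capitals. The window of ADAM15 is chr1:155051066-155051265 on the plus strand, that of ADAM12 chr10:126388528-126388727 and that of ADAM19 chr5:157575826-157576025, both on the minus strand. The RefSeq start of ADAM15 lies downstream of its listed start, so its window falls inside the listed range of the gene, and the other 2 windows fall outside theirs.

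ADAM15: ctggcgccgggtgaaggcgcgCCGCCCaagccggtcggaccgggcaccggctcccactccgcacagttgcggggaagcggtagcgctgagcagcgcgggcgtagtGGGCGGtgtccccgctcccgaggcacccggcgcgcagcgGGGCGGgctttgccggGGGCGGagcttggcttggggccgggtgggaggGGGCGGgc
ADAM12: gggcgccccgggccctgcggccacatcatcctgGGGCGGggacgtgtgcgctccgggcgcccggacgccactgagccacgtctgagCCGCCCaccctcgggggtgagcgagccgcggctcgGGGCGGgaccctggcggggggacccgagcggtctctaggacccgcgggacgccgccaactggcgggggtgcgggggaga
ADAM19: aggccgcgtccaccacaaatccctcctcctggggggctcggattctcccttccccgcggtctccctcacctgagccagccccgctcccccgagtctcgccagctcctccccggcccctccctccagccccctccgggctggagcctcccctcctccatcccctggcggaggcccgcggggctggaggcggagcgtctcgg

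The ADAM15 window held 5 GC boxes, that of ADAM12 held 3 and that of ADAM19 held 0. At least 1 was found in 35.0% of 35116 promoter windows of the same length, and 5 or more in 1.85%. The 3 windows held 28, 27 and 16 CpG dinucleotides, beside a median of 8 over all windows. An E-box (CACGTG) was in 4.51% of windows, a TATA box (TATAAA, or TTTATA on the other strand) in 7.63% and an AP-1 site (TGACTCA or TGAGTCA) in 3.23%, and each of these was at 0 in all 3. These matches describe letters only.

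ADAM17 and ADAM10 are the main sheddases of EGF receptor ligands, cytokines and Notch receptors. ADAM17 (ENSG00000151694) was at 27.1, 30.5 and 28.7 FPKM in UM-UC-3, control first. The library labelled 5637 sh-NC had 30.5 FPKM, and the 5637 knockdown libraries had 14.8 and 14.3 FPKM, which lay below the other 4. ADAM10 (ENSG00000137845) was at 8.19, 7.41 and 7.78 FPKM in UM-UC-3, with 7.68 FPKM for the library labelled 5637 sh-NC and 10.4 and 14.8 FPKM for the 5637 knockdown libraries. The UM-UC-3 values of both genes were close to each other with and without the LNMAT1 hairpins, and the log2 changes there ran from -0.13 to 0.17.

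ADAM9, ADAM12 and ADAM19 cut substrates such as HB-EGF and neuregulin, and ADAM12 is known from muscle, placenta and tumor stroma. ADAM9 (ENSG00000168615), on chromosome 8, was the highest of the 7 in every library, at 62.5, 44.1 and 62.5 FPKM in UM-UC-3. It stood at 39.7 FPKM for the library labelled 5637 sh-NC and at 22.5 and 21.7 FPKM in the 5637 knockdown libraries. ADAM12 (ENSG00000148848) was at 25.3, 12.1 and 21.9 FPKM in UM-UC-3 and at 11.1 FPKM for the library labelled 5637 sh-NC. The 5637 knockdown libraries listed it at 0.0366 and 0.0295 FPKM, which is 0.283 to 7.50 and 0.212 to 5.63 fragments, a range that includes a floor of 3 fragments. If 3 fragments fell on the shortest transcript, ADAM12 in 5637 would be at least 31.1-fold lower than in UM-UC-3 for #1 and at least 52.5-fold lower for #2. Such bounds cover counting error only. ADAM19 (ENSG00000135074) was at 4.49, 3.76 and 5.61 FPKM in UM-UC-3, 3.58 FPKM for the library labelled 5637 sh-NC, and 11.9 and 12.0 FPKM in the 5637 knockdown libraries.

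ADAM8 (ENSG00000151651), best known from leukocytes and osteoclasts, was under 1 FPKM on average and was not kept. It was at 0.175, 0.493 and 0.173 FPKM in UM-UC-3, 0.401 FPKM for the library labelled 5637 sh-NC, and 0.675 and 1.23 FPKM in the 5637 knockdown libraries. The value in UM-UC-3 sh-NC rests on 1.77 to 20.7 fragments, so no fold is given.

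In UM-UC-3 sh-NC, the order of levels was ADAM9, ADAM17, ADAM12, ADAM10, ADAM19, ADAM15 and ADAM8. ADAM9 held 48.1% of the summed FPKM of the 7 genes and ADAM15 1.64%. In the UM-UC-3 knockdown libraries ADAM15 held 8.10% and 6.51% and stood above ADAM10 and ADAM19. In the 5637 knockdown libraries it was next to ADAM9, with 20.7% and 20.0%. There the values of ADAM10, 10.4 and 14.8 FPKM, spanned those of ADAM19 and ADAM17, so the order of these 3 was not resolved. The summed level was 129.9, 107 and 136 FPKM in UM-UC-3, 99.5 FPKM for the library labelled 5637 sh-NC, and 75.9 and 80.1 FPKM in the 5637 knockdown libraries.

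The knockdown comparison asks which transcripts change when LNMAT1 is lowered. Both hairpins of a line are set against the same sh-NC library, so agreement between them is not independent. In UM-UC-3, 1 of the 6 kept sheddases, ADAM15, was at least 2-fold higher than sh-NC with both hairpins, beside 0.967% of all kept genes, and 0 were at least 2-fold lower, beside 0.346%. Since ADAM15 was chosen on this contrast, nothing is read from that count. ADAM12 was the other gene to pass 2-fold with a single hairpin, with log2 changes of -1.04 for #1 and -0.21 for #2. ADAM19 moved in opposite directions, by -0.23 and 0.29, and ADAM9 by -0.50 and 0.00. The median over the 6 kept sheddases of the mean change was -0.03, and the medians over all kept genes were 0.00 and 0.01 with the 2 hairpins.

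The UM-UC-3 knockdown libraries also differed from each other. Between them, 8.23% of kept genes were at least 2-fold apart, against 1.97% between the 5637 knockdown libraries. None of the 6 kept sheddases was 2-fold apart in either pair. ADAM12 came nearest in UM-UC-3, with a log2 difference of 0.83 between hairpins, and ADAM10 in 5637, with 0.50.

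Against the library labelled 5637 sh-NC, 2 of the 6 kept sheddases, ADAM15 and ADAM19, were at least 2-fold higher with both hairpins, beside 15.9% of all kept genes. ADAM15 was chosen on this rise too, so 1 of the 2 was set by the choice. ADAM12 and ADAM17, 2 of the 6, were at least 2-fold lower, beside 14.2%. With a pseudocount of 1 in place of 0.5, this count of 2 became 1, ADAM12. The log2 changes were 1.60 and 1.62 for ADAM19, -1.02 and -1.06 for ADAM17, -0.81 and -0.86 for ADAM9, and 0.41 and 0.90 for ADAM10. The change of ADAM12, -4.44 and -4.46, depends on the pseudocount. Without that library, whose profile did not match its label, no 5637 knockdown change can be given.

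**Figure D2:**
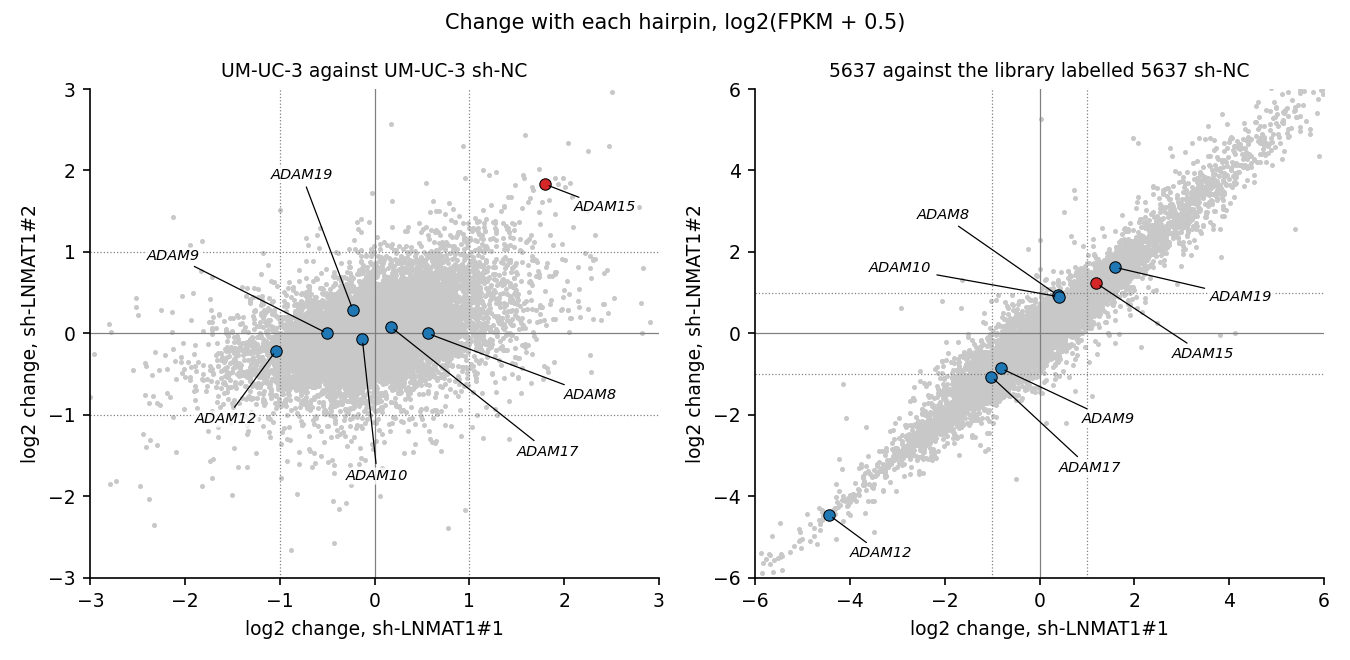
Log2 change with sh-LNMAT1#1 (horizontal) and sh-LNMAT1#2 (vertical) for the kept genes (grey), ADAM15 (red) and the other 6 sheddases (blue), with dotted lines at 2-fold; 34 and 67 of 12716 kept genes lie outside the 2 panels. In UM-UC-3, ADAM15 at 1.80 and 1.83 stands apart from the other 6. Against the library labelled 5637 sh-NC the sheddases spread from ADAM12 at -4.44 and -4.46 to ADAM19 at 1.60 and 1.62. Both axes of a panel subtract the same sh-NC library, so a spread along the diagonal is not independent agreement of the hairpins.

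A contrast that uses neither sh-NC library sets the 2 knockdown libraries of 5637 against those of UM-UC-3. Its replicates carry different hairpins, so its p-values measure the spread between hairpin libraries, and nothing in the labels says that they came from separate cultures. ADAM9 and ADAM17 were lower in 5637 and ADAM19 was higher (limma, Benjamini-Hochberg adjustment over 12716 genes). ADAM12 was near 0 in 5637 and passed the filter through the other 4 libraries, so it was kept because of where it is high, and no p-value is given for it. It was called lower with the filter and without it. Its log2 difference was -4.97 and moved to -6.94 with a pseudocount of 0.1 and to -4.06 with 1, so the bounds from fragments given above are the safer reading. ADAM9 differed by -1.23 (standard error 0.24, adjusted p = 0.0132 from limma) and ADAM17 by -1.0 (standard error 0.18, adjusted p = 0.0117 from limma). ADAM19 differed by 1.29 (standard error 0.25, adjusted p = 0.0129 from limma). For each of these 4 genes both 5637 values lay beyond both UM-UC-3 values, and so they did for ADAM10, which was not called. The share of all kept genes that did so was not counted, so nothing is read from this. ADAM10 was higher by 0.67 (95% interval 0.07 to 1.28, adjusted p = 0.0792 from limma) and did not pass. ADAM15 was in the fit, but since it was chosen on its values its test is not used. It was higher by 0.82 on the log2(FPKM + 0.5) scale, and the ratio of its FPKM was 1.81 with each hairpin.

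Of the 5 sheddases tested, 1 was called higher in 5637, beside 18.5% of all kept genes, and 3 lower, beside 19.1%. ADAM12 is 1 of the 3. Counting all 6 libraries, both 5637 knockdown values lay above the other 4 for 3 of the 6 kept sheddases, as for 30.2% of kept genes, and below for the remaining 3, as for 33.1%. Large differences between the lines were common, and nothing particular to the sheddases is read from these counts.

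These calls rest on few libraries. Without 5637 sh-LNMAT1#1 or without 5637 sh-LNMAT1#2, which leaves a lone 5637 library assumed to vary like the others, ADAM12 alone was called. The adjusted p from limma was then 0.136 in both fits for ADAM9, 0.126 and 0.128 for ADAM17, and 0.156 and 0.151 for ADAM19. With no filter on low values, ADAM9 and ADAM19 had adjusted p of 0.116 and 0.112. With the library labelled 5637 sh-NC counted as 5637 and UM-UC-3 sh-NC as UM-UC-3, no sheddase passed, and 1 gene was called in each direction among all kept genes. Over 13 alternatives the adjusted p from limma ran from 0.00409 to 0.335 for ADAM9, 0.00505 to 0.363 for ADAM17, 0.00401 to 0.399 for ADAM19 and 0.0498 to 0.424 for ADAM10, and no sheddase changed direction.

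**Figure D3:**
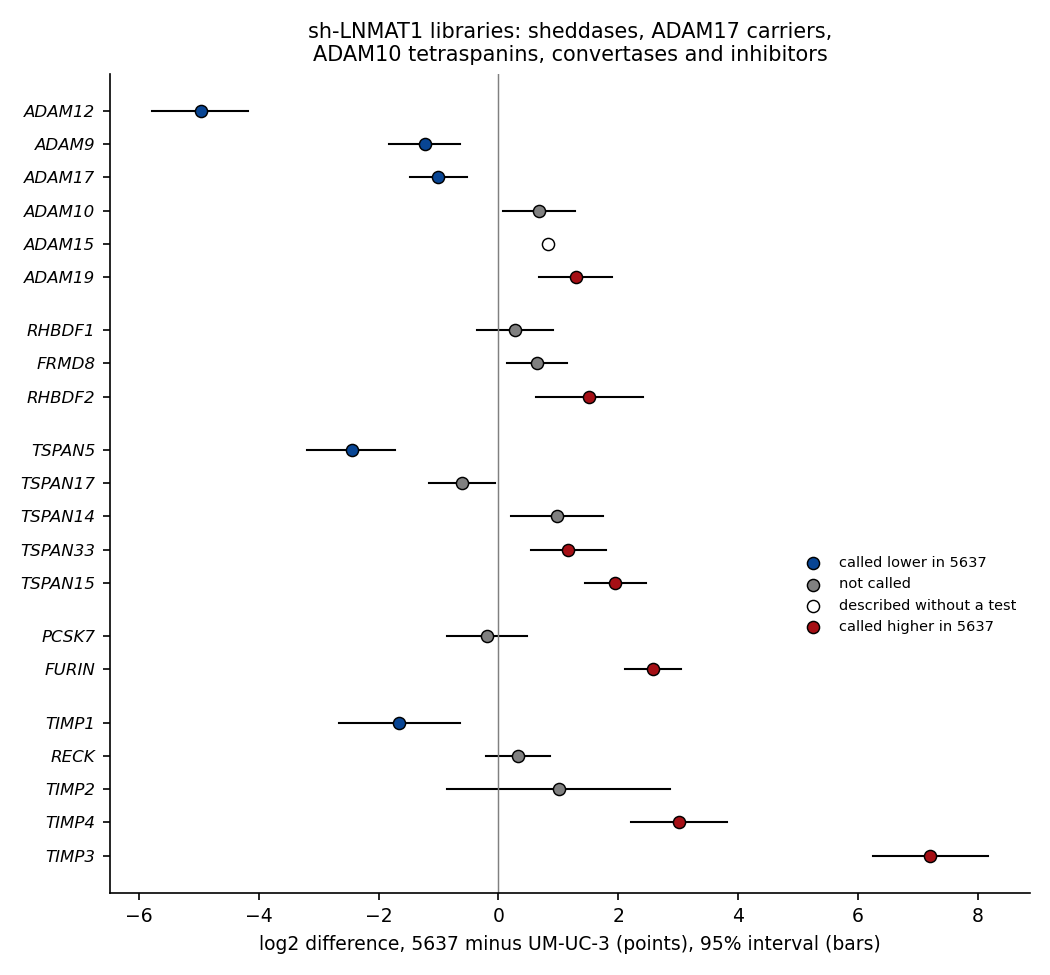
Log2 difference between the 5637 and UM-UC-3 knockdown libraries (points) with 95% intervals from limma (bars) for the kept sheddases and, in further blocks, the ADAM17 carriers, ADAM10 tetraspanins, convertases and inhibitors. ADAM12 at -4.97 and TIMP3 at 7.21 are the extremes, both near 0 in a line, so that their size depends on the pseudocount. ADAM15 at 0.82 is drawn open because it was chosen on its values and its test is not used.

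Genes that carry or activate the sheddases were described in the same contrast, where 18.5% of all kept genes were called higher in 5637 and 19.1% lower. Of 37 differences of sheddases and listed genes, 14 were weaker without 5637 #1, 13 weaker and 1 reversed without 5637 #2, 14 weaker with no filter and 31 weaker with all 6 libraries by label. FURIN, TIMP3, AREG, SRC, TSPAN15 and ADAMTS7 kept their calls in the first 3 of these fits and lost them in the last, and RHBDF2, TSPAN33, TIMP1, TGFA and ITGB3 lost theirs in all 4. Some genes near 0 in a line were kept through the line where they are high, and the size of their difference depends on the pseudocount. Among these are ADAM12, ITGB3, ADAMTS1, ADAMTS7, ADAMTS14, ADAMTS15, ADAMTS16, ADAMTS19, TIMP3, TIMP4, AREG, TGFA, EPCAM, ICAM1 and CDH1. SRC, TSPAN15 and ADAM11, under 1 FPKM in the UM-UC-3 knockdown libraries, were also kept through the line where they are high. Of the 3 ADAM17 carriers, RHBDF2 (iRhom2) was higher in 5637, by 1.52 (adjusted p = 0.0242 from limma), with 4.70 and 6.64 FPKM against 1.08 and 2.38 FPKM. FRMD8, which stabilizes the iRhom complex, had a difference of 0.65 and an adjusted p of 0.0523, and RHBDF1 was not called. RHBDF2, which carries ADAM17, was thus higher where ADAM17 itself was lower. Of the 6 TspanC8 genes, 5 were tested, with 2 called higher and 1 lower. TSPAN33 was higher by 1.17 (adjusted p = 0.0182 from limma). TSPAN15 was called higher, by 1.95, with 4.55 and 4.17 FPKM against 0.701 and 0.807 FPKM. Since it was kept through the line where it is high, no p-value is given. TSPAN5 was lower by a log2 difference of -2.45 (adjusted p = 0.00285), at 0.763 and 1.30 FPKM against 6.40 and 9.35 FPKM. The medians of the carriers and tetraspanins were 0.65 and 0.98, beside -0.05 over all kept genes. They are the differences of FRMD8 and TSPAN14, neither of which was called, so no shift of these lists is read from them.

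Of the 4 proprotein convertases, 2 were tested and FURIN was called higher, by 2.58 (adjusted p = 5.31e-04 from limma). It was at 37.9 and 36.3 FPKM in the 5637 knockdown libraries and between 4.70 and 6.03 FPKM in the other 4. PCSK6, not kept, was at 1.83 and 1.93 FPKM in the 5637 knockdown libraries and at most 0.0194 FPKM elsewhere.

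Of the 5 inhibitors, 2 were called higher, beside 18.5% of all kept genes, 1 lower, beside 19.1%, and 2 neither, with a median of 1.01. The 2 higher, TIMP3 and TIMP4, were kept through the line where they are high, and without the filter TIMP3 kept its call. TIMP3, an inhibitor of ADAM17 and ADAM10 that is bound to the matrix, was at 69.1 and 142 FPKM in the 5637 knockdown libraries and at most 0.263 FPKM in the other 4. TIMP4 was at 4.95 and 2.66 FPKM there and at most 0.0272 FPKM in UM-UC-3, and its call was lost without the filter. TIMP1, which inhibits ADAM10, was lower by -1.65 on the log2 scale (adjusted p = 0.0271), and in UM-UC-3 it was at 37.2, 87.3 and 38.7 FPKM. TIMP2 was at 7.85 FPKM in 5637 sh-LNMAT1#1 and 40.4 FPKM in 5637 sh-LNMAT1#2, and its difference of 1.01 (adjusted p = 0.327) turned to -0.14 without the latter library. The median of the inhibitors is the TIMP2 difference of 1.01, so it rests on that library too. RECK, a membrane-anchored inhibitor, stayed between 4.08 and 6.60 FPKM in the 6 libraries.

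Among substrates, 2 of 4 tested EGF receptor ligands were higher in 5637, beside 18.5% of all kept genes, and 0 were lower, beside 19.1%, with a median of 1.63. AREG (amphiregulin), a ligand cut by ADAM17, was at 60.7 and 56.7 FPKM in the 5637 knockdown libraries, 0.856 and 0.178 FPKM in those of UM-UC-3, and 0.465 FPKM for the library labelled 5637 sh-NC. TGFA was at 4.48 and 10.9 FPKM against 0.847 and 0.0907 FPKM. Both were kept through the line where they are high, and without the filter AREG kept its call and TGFA did not. EREG and HBEGF were expressed at 9.16 FPKM or more in every library and were not called. Of 26 other shed substrates tested, 7 were called higher, 6 lower and 13 neither, with a median of 0.19, beside 18.5% higher and 19.1% lower over all kept genes. EPCAM, ICAM1, F11R and CDH1, adhesion proteins, were the 4 with the largest differences, between 5.07 and 6.08. All 4 were kept through the line where they are high, so nothing is read from these calls. EPCAM and CDH1 are also 2 of the 9 epithelial markers. All 9 were called higher, but KRT5, KRT7, KRT19, GATA3 and TP63 were likewise kept through the line where they are high.

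Of the 6 integrin genes tested, 1 was higher and 4 were lower, beside 18.5% and 19.1% of all kept genes, with a median of -1.36. ITGA6 was higher by 2.22 (adjusted p = 0.00242 from limma), and ITGA5 was lower, with a difference of -1.77 (adjusted p = 0.00545 from limma). ITGB3 was called lower, by -2.55, and was at 0.163 and 0.308 FPKM in the 5637 knockdown libraries. It was kept through the line where it is high, so no p-value is given. ITGAV, partner of ITGB3 in the integrin that the RGD motif of human ADAM15 can bind, stayed between 11.8 and 14.5 FPKM. Of the 13 cytoplasmic tail partners tested, 4 were higher, 3 lower and 6 neither, beside the same shares, with a median of -0.06. SRC was at 12.9 and 14.5 FPKM in the 5637 knockdown libraries and at 0.841 to 0.922 FPKM in the other 4, a log2 difference of 3.36. It was kept through the line where it is high, so no p-value is given, and without the filter it kept its call. FHL2 and SNX9 were lower, by differences of -1.99 (adjusted p = 0.00186 from limma) and -1.96 (adjusted p = 0.00796).

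Other ADAM and ADAMTS genes were mostly low. The 5 further ADAM genes with a protease motif were at most 0.398 FPKM in any library. Of 8 ADAM genes without the motif, 3 were kept, with a median difference of 0.53. ADAM11 among them was called higher in 5637, by 1.21. It was at most 0.931 FPKM outside the 5637 knockdown libraries and was kept through the line where it is high, so no p-value is given. Of 19 ADAMTS genes, which encode secreted relatives, 7 were tested, 2 were higher and 4 lower, beside 18.5% and 19.1% of all kept genes, with a median of -1.71. Those called were ADAMTS1, ADAMTS7, ADAMTS14, ADAMTS15, ADAMTS16 and ADAMTS19. Each was kept through the line where it is high, so nothing is read from these counts or the median. ADAMTS1 was at 28.7 and 26.0 FPKM in the UM-UC-3 knockdown libraries and at 0.494 and 0.788 FPKM in those of 5637. ADAMTS7 was at 8.59 and 8.93 FPKM in the 5637 knockdown libraries and at most 0.12 FPKM elsewhere. ADAMTS16 was at 0.0825 and 0.0241 FPKM there and at 5.64 FPKM or more elsewhere.

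With LNMAT1 knockdown in UM-UC-3, 1 gene on the 11 lists, ADAMTS14, was lower by 2-fold or more for both hairpins and 0 were higher, beside 0.346% and 0.967% of all kept genes. ADAMTS14 changed by -1.65 and -1.14, from 4.03 FPKM in sh-NC to 0.945 and 1.55 FPKM. ADAMTS1 had changes of 1.01 and 0.87, SDC4 of 0.99 and 0.85, and FHL2 of 1.08 and 0.83. The medians of the mean change were 0.16 for the ADAM17 carriers, -0.27 for the tetraspanins, 0.11 for the convertases, 0.04 for the inhibitors, 0.58 for the EGF receptor ligands, 0.01 for other substrates, 0.28 for the integrins, 0.06 for the tail partners, -0.40 for the ADAM genes without the motif and -0.20 for the ADAMTS genes. In several lists the hairpins disagreed. TGFA changed by 1.22 and 0.03, TIMP1 by 1.22 and 0.06 and ITGB3 by 1.45 and 0.10, each larger with sh-LNMAT1#1. SDC1, IL6R, NOTCH1 and AREG were also past 2-fold higher, and MICB lower, with that hairpin alone. TNF passed it in opposite directions, by -1.82 and 1.13, from 1.84 FPKM to 0.161 and 4.63 FPKM. The median of the EGF receptor ligands was the largest of the lists. It rests on TGFA and AREG, which were at most 0.847 and 0.856 FPKM in UM-UC-3, so its size depends on the pseudocount. It also rests on sh-LNMAT1#1. With that hairpin EREG, TGFA, AREG and HBEGF changed by 0.91, 1.22, 1.03 and 0.22. With sh-LNMAT1#2 they changed by 0.66, 0.03, 0.03 and -0.69.

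ADAM15 lies in a gene-dense stretch, and 18 rows of the table fall within 100 kb of it, of which 11 were kept. In UM-UC-3, 1 of the 11, EFNA3, was at least 2-fold higher with both hairpins, beside 0.967% of all kept genes, and 0 were lower, beside 0.346%. EFNA3, an ephrin gene 16097 bases past the end of ADAM15, was at 0.742 FPKM in sh-NC and at 2.78 and 2.54 FPKM in the knockdown libraries, changes of 1.40 and 1.29. Against the library labelled 5637 sh-NC, where EFNA3 was at 2.46 FPKM, its changes were -0.20 and 0.00. EFNA4, which starts 956 bases past ADAM15, changed by 0.54 and 0.31 in UM-UC-3, and DPM3 by 0.94 and 0.90. The median of the mean change over the 11 was 0.32. Against the library labelled 5637 sh-NC, 2 of the 11, EFNA4 at 1.43 and 1.61 and EFNA1 at 2.20 and 2.30, were at least 2-fold higher, beside 15.9% of all kept genes. The other kept neighbours were PBXIP1, PYGO2, SHC1, CKS1B, FLAD1, ZBTB7B and SLC50A1. Upstream, DCST1 overlaps the first bases of ADAM15 on the same strand, so fragments there could count to either gene, and DCST1 was at most 0.280 FPKM.

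The profiles nearest to those of the sheddases were sought over the 6 libraries as the smallest root mean square difference of centred log2 values. For ADAM15 these were AVPI1 at 0.23, GOLGA2 at 0.24, ZNF629 and LPCAT1 at 0.25 and RAB43 at 0.26. GOLGA2, a Golgi matrix protein gene, was at 2.03, 6.27 and 5.48 FPKM in UM-UC-3, 6.84 FPKM for the library labelled 5637 sh-NC, and 11.9 and 11.5 FPKM in the 5637 knockdown libraries. For ADAM12 the nearest were ZNF385D at 0.24, VIM, the mesenchymal intermediate filament gene, at 0.27 and LINC01444 at 0.40. ATM at 0.04, ZWILCH and RABEP1 at 0.08 were nearest to ADAM9, and FAM214B and SGCE at 0.02 and YBEY at 0.04 to ADAM17. For ADAM19 the nearest was SEPTIN9 (ENSG00000184640, its name turned into a date in the deposited values) at 0.04. ADAM10 ranged over less than 1 on the log2 scale, so no gene is named. By Pearson's r in place of the root mean square, 1 of the 5 genes nearest to ADAM15 was again among its nearest 5, and without the library labelled 5637 sh-NC, 3 were.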

How the data were processed

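The authors deposited FPKM per gene for 6 libraries in 1 table of 50869 rows, made with a stranded mRNA kit, HISAT2 and hg38. The counting program and its annotation are not given in the sources used here. A record broken over 2 lines was left out, which left 50867 rows. GENCODE release 29 held 50110 of their identifiers, 47522 at the same position. In 28 rows the gene name was a date.

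Single-exon genes gave the depth, and at least 99.96% of their values were a whole number of fragments within 0.02. Depth was 24707000, 22279000 and 22949000 in UM-UC-3 (control, #1, #2) and 22438000, 20803000 and 19375000 in the libraries labelled 5637. For genes with introns, the shortest transcript and the union of exons bounded the fragments.

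Changes are differences of log2(FPKM + 0.5) over genes at a mean of at least 1 FPKM. Knockdown was read at 2-fold without a test. The line contrast used limma 3.58.1 in R 4.3.3 (lmFit, eBayes with a trend, 2 residual degrees of freedom), called at a Benjamini-Hochberg adjusted p under 0.05. All 7 members were named, and from each list of related genes some of the 4 largest changes. RECK, PCSK6, ITGAV, TNF and MICB were added after their values were seen. The members and lists were chosen with earlier results of these data known.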

Additional observations from a re-analysis of the deposited data

Results flagged for a closer look

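The knockdown changes of 2 sheddases pointed one way in UM-UC-3 and the other way against the library labelled 5637 sh-NC, with both hairpins in each case. Both hairpins share a control library in each case, so their agreement is not independent. For ADAM17 the mean log2 change was 0.12 in UM-UC-3 and -1.04 against the library labelled 5637 sh-NC, a difference of -1.17. For ADAM10 it was -0.10 in UM-UC-3 and 0.65 against that library, a difference of 0.76. Neither difference was tested, since there is 1 library for each construct. Both rest on the library labelled 5637 sh-NC, which carried the marker profile of UM-UC-3. With 75th percentile scaling, the change of ADAM17 in UM-UC-3 with sh-LNMAT1#2 moved from 0.08 to 0.00.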

How the results depend on the processing

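Adding 0.1 FPKM before logs gave ADAM15 log2 changes of 1.98 and 2.00 in UM-UC-3 and 1.25 and 1.27 against the library labelled 5637 sh-NC. Adding 1 gave 1.63, 1.65, 1.14 and 1.17, and scaling each library to its 75th percentile gave 1.88, 1.76, 1.03 and 1.05, so ADAM15 stayed past 2-fold in all 3. That scaling moved the median change of kept genes by 0.06 and -0.05 in UM-UC-3 and by -0.16 with each hairpin against the library labelled 5637 sh-NC. Why the values below moved was not tested.

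The 123 higher and 44 lower genes of UM-UC-3 stand beside 2020 and 1811 against the library labelled 5637 sh-NC. With 75th percentile scaling the latter were 1717 and 2288, so that more were lower than higher. In UM-UC-3, 199 were higher after adding 0.1, and 78 higher and 27 lower after adding 1. With a filter of mean 5 FPKM, fewer genes entered, and the counts were 74 up and 20 down for UM-UC-3 and 831 and 946 against that library. At 1.5-fold they were, in the same order, 514, 286, 3168 and 3187. In UM-UC-3, hairpin #1 alone gave 658 up and 632 down, and hairpin #2 alone gave 237 and 169. Sheddases below the library labelled 5637 sh-NC numbered 1 after adding 1, and 1 was lower in UM-UC-3 with #1 alone.

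Between the lines, limma called 2349 genes higher and 2430 lower in 5637. Without a filter 1246 were lower, and 0 tested sheddases were higher. A filter of mean 5 FPKM gave 931 higher and 1260 lower. With UM-UC-3 sh-NC added, 2 tested sheddases were higher, ADAM10 among them at 0.64 (adjusted p = 0.0498, over all alternatives 0.0498 to 0.424). With all 6 libraries by label, 1 gene was higher and 1 lower, sheddases were called in 0 cases in each direction, and the differences were -1.04 for ADAM9, -3.70 for ADAM12, -0.61 for ADAM17 and 0.76 for ADAM19. Without a filter, ADAM9 at -1.23 and ADAM19 at 1.29 lost their calls.

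Leaving out 1 library at a time gave 781 to 2600 genes higher and 464 to 2572 lower, the lowest counts without a 5637 library. ADAM9 ran from -1.48 to -0.98, ADAM17 from -1.04 to -0.96 and ADAM19 from 1.03 to 1.55. TIMP2 turned from 1.01 to -0.14 without 5637 #2 and was 2.15 without 5637 #1.

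With the hairpin number as a replicate block, 1 sheddase was called higher and 3 lower, as without it. The numbers name hairpins and the log2 differences between hairpins correlated across genes at 0.03 between the lines.

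Depth limits ADAM12 in 5637, and ADAM8 in UM-UC-3 sh-NC and UM-UC-3 #2. The limits are 1 library for each construct, a control that did not match its line, and values with no counts.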
